A study of Mus musculus with 2 samples.

Results

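The genes described here mark mural cells and meningeal fibroblasts, cell types of the vessel wall and of the brain's coverings that can accompany microglia in a preparation of brain mononuclear cells. They are 36 genes, 14 of mural cells and 22 of meningeal fibroblasts, out of 18193 genes that the array annotation names through a probe set with a single gene symbol. They were listed by the cell type they are known to mark, with earlier results of these arrays known, and all 36 have such a probe set. Brain mononuclear cells of CD47 KO mice (6 males, 12 to 16 wks of age) were compared with those of WT mice (7 males, 10 to 15 wks of age). The CD47 KO mice lack CD47, the membrane ligand of SIRPα, in every cell type, and no other allele, treatment or strain background is given for either group in the sources used here. RNA was pooled by genotype and each pool was measured on 1 array, so there are no replicates, and no error between animals, p-value or test can be given for any difference.

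Mural cells are the pericytes of capillaries and the smooth muscle cells of arterioles and larger vessels. Both lie on the outside of the endothelium, and the smooth muscle cells narrow the vessel through actin, myosin and their regulators. Meningeal fibroblasts of the pia and arachnoid secrete the fibrous matrix of the meninges, carry solute transporters of the barrier between blood and cerebrospinal fluid, and make retinoic acid. The sources used here do not say whether the meninges were removed before the brains were digested.

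Signals were computed by MAS5 as a linear measure of the brightness of a probe set, and a Log2 ratio is that of CD47 KO over WT. A gene is represented by its probe set of highest mean signal, and is called expressed where this signal reached the median of its array (146 on the CD47 KO array, 161 on the WT array) on at least 1 array. Signals of different probe sets are not on a common scale, so the level of a gene is not set against that of another, and brightness is used to judge how far a ratio can be trusted. With no replicates, the error between pools of a genotype cannot be gauged. The spread of the Log2 ratio between probe sets of the same gene covers only differences between probe sets, since all of them read the same pools. Genes were grouped by the mean signal of their brightest probe set. The pooled SD of this spread was 0.81 in the dimmest 25% of expressed genes. It was 0.68 and 0.56 in the middle groups and 0.42 in the brightest 25%. *Cd47* itself had a signal of 1688 in CD47 KO cells and 5816 in WT cells, and its 5 probe sets had Log2 ratios from -1.86 to -1.45. All 24 microglial markers named on the array were expressed on both arrays, with Log2 ratios from 0.02 to 0.66.

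Most genes of both groups were lower in the CD47 KO preparation. Of the 14 mural genes 11 were expressed, 8 of them lower and 3 higher in CD47 KO cells, with a median Log2 ratio of -0.61. Of the 22 fibroblast genes 18 were expressed, 15 lower and 3 higher, with a median of -0.87. Over all 11682 expressed genes the median was 0.00, with 5803 lower and 5879 higher. In a pooled preparation, fewer cells of a type and less RNA per cell cannot be told apart.

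Past 2-fold, 2 mural and 5 fibroblast genes were lower in CD47 KO cells and 1 mural gene was higher. These are 24.1% and 3.45% of the 29 expressed members. Taken apart, they are 18.2% and 9.09% of the 11 mural genes, and 27.8% and 0% of the 18 fibroblast genes. Of all expressed genes 5.41% were more than 2-fold lower and 3.53% more than 2-fold higher. A gene above the median on the WT array alone had to have a low CD47 KO signal, and 3 members were expressed through the WT array alone and 1 through the CD47 KO array alone. On the 25 members that reached the median on both arrays, 6 were more than 2-fold lower and 1 higher, against 2.42% and 1.28% of the 10292 genes of that kind. Most of these lower calls were of fibroblast genes, with 5 of 16 lower and 0 higher. The mural genes had 1 of 9 lower, *Acta2*, and 1 of 9 higher. With each array centred on its median, the shares over all expressed genes were 3.97% lower and 4.95% higher. After quantile normalization they were 4.49% and 4.32%, and after loess normalization 4.49% and 4.35%. The balance of lower and higher calls among all expressed genes thus changed with the scaling. The shares with the median required on both arrays were not recomputed with another scaling. The 2-fold limit fell between neighbouring members, since *Acta2* lay just inside it at -1.0005 and *Foxc1* just outside at -0.997.

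**Figure D1:**
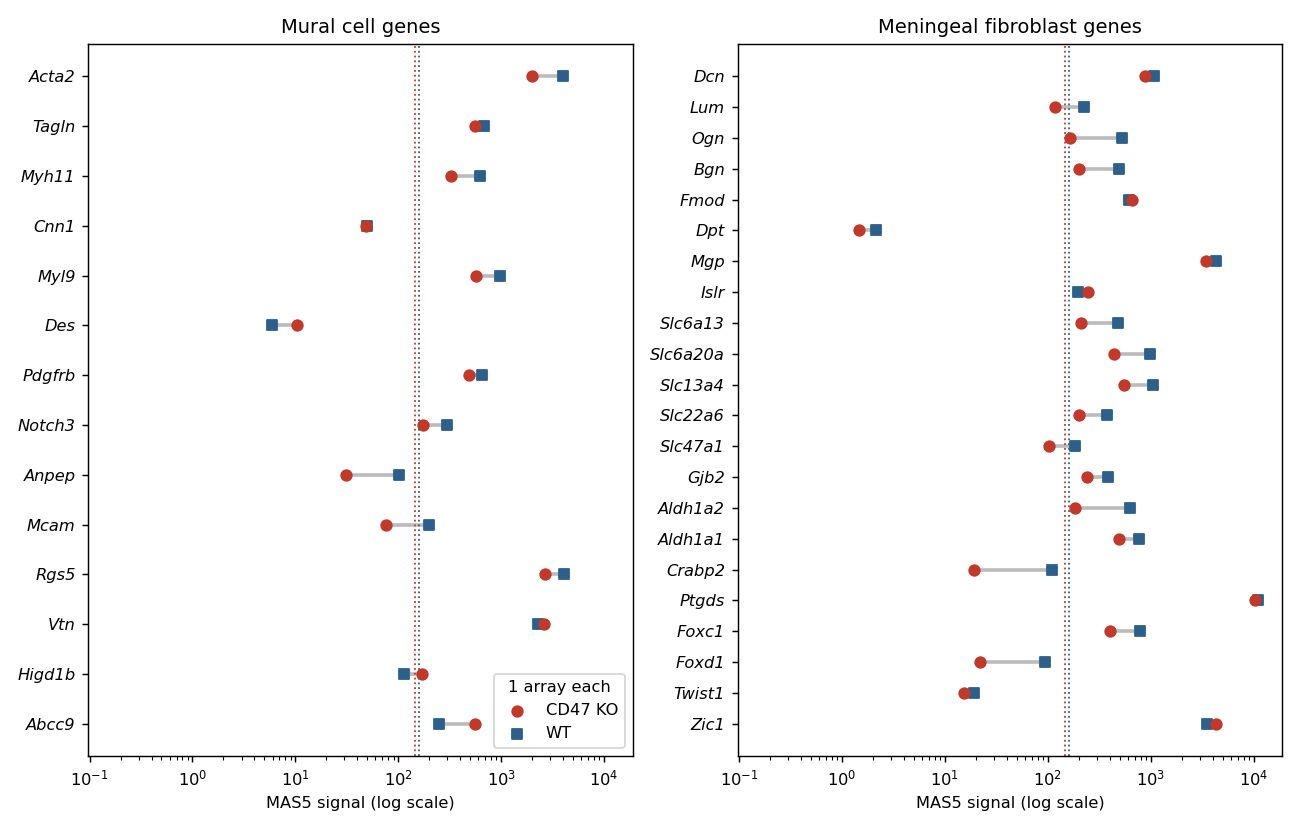
MAS5 signal (log scale) of the brightest probe set of each of the 14 mural and 22 fibroblast genes on the CD47 KO array (red circles) and the WT array (blue squares), 1 array per genotype and therefore no error bars, with the array medians of 146 and 161 as dotted lines. Most CD47 KO points lie left of their WT points, while *Abcc9*, *Higd1b*, *Vtn*, *Fmod*, *Islr*, *Zic1* and *Des* lie the other way and 7 genes lie below the median on both arrays.

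Of the 6 contractile genes of smooth muscle 4 were expressed, all lower in CD47 KO cells and 1 of them, *Acta2*, more than 2-fold. *Acta2*, which encodes smooth muscle α-actin, had a signal of 2002 in CD47 KO cells and 4004 in WT cells. It belongs to the brightest 25% of expressed genes, of which 0.514% were more than 2-fold lower. *Myh11*, the smooth muscle myosin heavy chain gene, had 322 in CD47 KO cells and 619 in WT cells, a Log2 ratio of -0.94. *Myl9*, encoding a regulatory light chain of myosin, had 565 in CD47 KO cells and 972 in WT cells, a ratio of -0.78. *Tagln*, which encodes the actin-binding protein transgelin (SM22α), differed less, with 560 in CD47 KO cells and 681 in WT cells and a ratio of -0.28. The median of the 4 expressed contractile genes was -0.86. *Cnn1* (calponin) and *Des* (desmin), the remaining contractile members, were below the median on both arrays, *Cnn1* with 48.4 in CD47 KO cells and 49.5 in WT cells and *Des* with 10.3 and 5.89, so their ratios were not read.

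The *Acta2* value rests on 1 probe set. By its name this probe set may also bind related transcripts, and the actins share most of their sequence. The probe sets of 2 other muscle actins were dim on both arrays, *Acta1* of skeletal muscle with 2.72 in CD47 KO cells and 11.9 in WT cells and *Actg2* of visceral smooth muscle with 1.87 and 5.34. The remaining actin genes were not examined, and which transcripts the *Acta2* probe set bound was not tested. The other *Acta2* probe sets lay below the median on both arrays, the brighter of them with a signal of 51.5 in CD47 KO cells and 19.8 in WT cells, a Log2 ratio of 1.38.

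The promoters of smooth muscle genes are known for the CArG box, the DNA element that serum response factor binds. The 300 bases around the annotated start (250 before and 50 after it) were taken from RefSeq on GRCm38.p6, whose table held 27 of the 36 members. The box has CC, 6 bases of A or T, and GG, and reads as the same pattern on both strands. The exact form was in the windows of 1.81% of the 27025 genes in the table and the form with 1 other base among the middle 6 in those of 11.3%, the exact form included. Among the 27 members, *Myl9* had the exact form, and *Acta2*, *Myl9* and the fibroblast gene *Slc13a4* had the form with 1 other base. These are 3.7% of the members for the exact form, which is 1 gene, and 11.1% with 1 other base allowed. The second share is near that of all genes, so the boxes do not set the members apart. *Tagln* and *Myh11* have no entry in the table. The windows of *Acta2* (chr19:34255324-34255623, minus strand) and *Myl9* (chr2:156775214-156775513, plus strand) are shown because both genes were among the lower contractile genes and both windows hold 2 boxes, given in capitals. A match of letters is a description of the window and does not show that a factor binds there. Counted from the 5′ end of the window, the boxes lie at 167 to 176 and 217 to 226 in *Acta2*, and at 90 to 99 (the exact form) and 152 to 161 in *Myl9*.
Acta2: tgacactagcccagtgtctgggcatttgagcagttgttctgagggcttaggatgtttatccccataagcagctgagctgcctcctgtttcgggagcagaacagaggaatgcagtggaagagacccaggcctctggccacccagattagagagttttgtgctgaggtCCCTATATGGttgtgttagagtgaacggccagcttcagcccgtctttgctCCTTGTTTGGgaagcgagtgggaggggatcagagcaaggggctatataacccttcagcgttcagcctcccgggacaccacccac
Myl9: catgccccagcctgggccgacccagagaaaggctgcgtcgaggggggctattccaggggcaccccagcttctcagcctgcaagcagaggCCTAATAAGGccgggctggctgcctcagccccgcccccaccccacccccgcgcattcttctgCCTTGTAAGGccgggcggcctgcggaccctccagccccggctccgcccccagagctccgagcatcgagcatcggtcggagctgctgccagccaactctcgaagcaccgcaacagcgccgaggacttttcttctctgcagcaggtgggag

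Regulators of these promoters did not share a direction. *Srf*, the gene of serum response factor, had 528 in CD47 KO cells and 526 in WT cells, a Log2 ratio of 0.00. *Mrtfa*, which encodes an actin-responsive cofactor of it, had 259 in CD47 KO cells and 630 in WT cells, a ratio of -1.29, and its relative *Mrtfb* had -0.11. *Myocd*, encoding the myocardin cofactor of smooth muscle, had 148 in CD47 KO cells and 94.0 in WT cells. *Myocd* reached the median on the CD47 KO array alone. These genes, and the ligands and targets below, belong to a list of 22 further mural signalling genes, of which 16 were expressed, 9 lower and 7 higher, with a median of -0.05. On this list 1 gene was more than 2-fold lower and none higher. That is 6.25% lower, near the 5.41% of all expressed genes, of which 3.53% were higher.

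The 3 expressed genes of mural receptors and surface proteins were lower as well. *Pdgfrb* encodes the receptor through which endothelial PDGF-B recruits pericytes. Its signal was 492 in CD47 KO cells and 653 in WT cells, and both of its probe sets were lower, at -0.41 and -0.29. *Pdgfb*, the ligand gene, had 336 in CD47 KO cells and 350 in WT cells, a ratio of -0.06, whereas the related ligand gene *Pdgfd* had -0.92. *Notch3*, encoding the Notch receptor of smooth muscle and pericytes, had 173 in CD47 KO cells and 298 in WT cells. Its probe sets had Log2 ratios of -0.78 and -0.80, the second expressed through the WT array alone. The Notch target genes *Hey1* and *Hey2* lay beside it at -0.84 and -0.76, while *Jag1*, the gene of an endothelial Notch ligand, had 0.07. Endothelial cells also express *Hey1* and *Hey2*. On the same list *Rbpj* had 0.44. *Heyl* and *Hes1* were below the median on both arrays, *Heyl* with 101 in CD47 KO cells and 94.1 in WT cells and *Hes1* with 44.6 and 72.3. *Mcam*, encoding the adhesion molecule CD146, had 76.1 in CD47 KO cells and 199 in WT cells, a ratio of -1.39, and was expressed through the WT array alone. *Anpep*, the aminopeptidase N gene, was below the median on both arrays with 31.2 in CD47 KO cells and 102 in WT cells.

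The pericyte-enriched genes were divided. *Rgs5*, which encodes a regulator of G protein signalling, is typical of pericytes and was the bright member on the lower side. It had 2676 in CD47 KO cells and 4097 in WT cells, a ratio of -0.61, and its 4 probe sets were all lower, from -1.63 to -0.28. *Vtn*, the vitronectin gene, had 2589 in CD47 KO cells and 2288 in WT cells, and its 2 probe sets gave 0.18 and 0.21. Both genes lie in the brightest 25%, where the SD between probe sets was 0.42. The *Vtn* ratio was within that spread and that of the brightest *Rgs5* probe set was not. Of the other *Rgs5* probe sets, the one at -0.28 was within it. Those at -1.63 and -0.43 are named for possible cross-hybridisation. That spread does not include differences between pools. *Higd1b*, a mitochondrial protein gene of pericytes, had 169 in CD47 KO cells and 115 in WT cells, a ratio of 0.56, and was expressed through the CD47 KO array alone. *Abcc9*, encoding the sulphonylurea receptor subunit of a potassium channel, was the member with the highest ratio. Its brightest probe set had 558 in CD47 KO cells and 249 in WT cells, a ratio of 1.17. The second, of like brightness, had 366 in CD47 KO cells and 381 in WT cells, a ratio of -0.06, and the third had 10.4 and 111, a ratio of -3.41 below both medians. The *Abcc9* probe sets therefore give no common direction. *Kcnj8*, encoding the pore subunit that pairs with *Abcc9* in pericytes, had 0.33. It is 1 of 21 further expressed mural genes taken up below, of which 16 were lower and 5 higher. Among the lower ones, *S1pr3* had -1.41 and *P2ry14* -0.26, both above the median on both arrays. *Cox4i2* had -1.34 and was expressed through the WT array alone. The median of the 4 pericyte-enriched genes was 0.37, set beside -0.86 for the contractile and -0.78 for the receptor and surface genes. With *Higd1b* and *Mcam* left out, each above the median on 1 array alone, the values were 0.18 for the pericyte-enriched and -0.60 for the receptor and surface genes. The difference between these groups rests on few genes, *Abcc9* with its divided probe sets among them, and was not tested.

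Of 33 further mural genes that are not members, 21 were expressed, with 16 lower, 5 higher and a median Log2 ratio of -0.37. Past 2-fold 4 were lower and 1 higher. These are 19.05% and 4.76% of the 21, against 5.41% and 3.53% of all expressed genes. Of the 21, 13 reached the median on both arrays, with a median of -0.26. Among these 1 was more than 2-fold lower and none higher, against 2.42% and 1.28% of all genes of that kind. *Cspg4*, encoding the NG2 proteoglycan of pericytes and oligodendrocyte precursors, had 78.0 in CD47 KO cells and 306 in WT cells, and the adenylate cyclase gene *Adcy3* had 126 and 389, both expressed through the WT array alone. *Tpm1*, a tropomyosin gene found in many cells, had 4370 in CD47 KO cells and 4845 in WT cells, a ratio of -0.15. Further genes of the muscle apparatus, *Tpm2* (tropomyosin) and *Pln* (phospholamban), had -0.05 and -0.06, while the myosin kinase gene *Mylk* had -0.62. *Npy1r*, a neuropeptide Y receptor gene that neurons also use, was the 1 gene more than 2-fold higher, with 388 in CD47 KO cells and 43.2 in WT cells, and was expressed through the CD47 KO array alone.

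**Figure D2:**
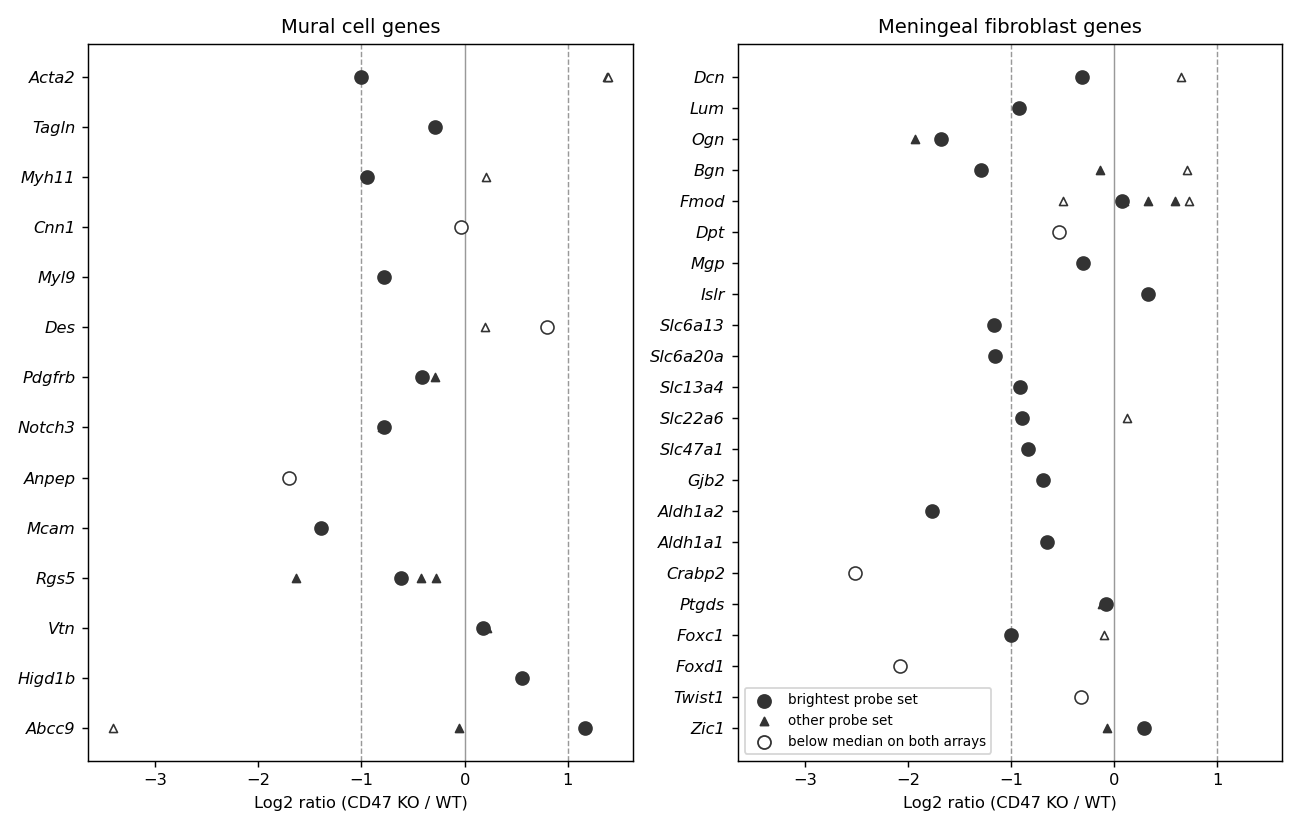
Log2 ratio (CD47 KO over WT) of each of the 61 probe sets of the mural and fibroblast genes, with the brightest probe set of a gene as a circle, others as triangles, open symbols for probe sets below the median on both arrays and dashed lines at 2-fold. The filled symbols of *Ogn*, *Rgs5*, *Notch3* and *Pdgfrb* all lie left of 0, while those of *Abcc9* and *Zic1* lie on both sides.

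Among the matrix genes of fibroblasts the small leucine-rich proteoglycans showed unequal ratios. These secreted proteins bind collagen fibrils and set their spacing. *Ogn*, encoding osteoglycin (mimecan), had 162 in CD47 KO cells and 522 in WT cells, a Log2 ratio of -1.68, and its second probe set, expressed through the WT array alone, gave -1.93. *Bgn*, the biglycan gene, had 203 in CD47 KO cells and 495 in WT cells, a ratio of -1.29, but its second expressed probe set gave -0.13. *Lum*, encoding lumican, had 117 in CD47 KO cells and 223 in WT cells, a ratio of -0.93, and was expressed through the WT array alone. *Dcn*, the decorin gene, was closer in both, with 872 in CD47 KO cells and 1086 in WT cells and a ratio of -0.32. *Fmod*, the fibromodulin gene, had 652 in CD47 KO cells and 618 in WT cells, and its 4 expressed probe sets lay between 0.08 and 0.59. All 4 of these *Fmod* probe sets are named for possible cross-hybridisation. The 1 *Fmod* probe set without such a name was below the median on both arrays and gave -0.50, so the direction of *Fmod* depends on the probe set.

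Several of these genes lie side by side in the genome. On mouse chromosome 10 *Dcn*, *Lum*, *Kera* and *Epyc* are neighbours, and *Kera* and *Epyc* were below the median on both arrays. On chromosome 13 *Ecm2*, *Aspn*, *Omd* and *Ogn* are neighbours, and of these only *Ogn* was expressed. *Prelp*, next to *Fmod* on chromosome 1, had 753 in CD47 KO cells and 902 in WT cells, a ratio of -0.26. Of the 14 genes of the family with a named probe set, 6 were expressed, and the ratio of neighbours such as *Dcn* and *Lum* differed by less than the spread between probe sets in the dimmer of their brightness groups.

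The remaining matrix genes differed little. *Mgp*, encoding the calcification inhibitor matrix Gla protein, had 3477 in CD47 KO cells and 4287 in WT cells, a ratio of -0.30. *Islr*, a leucine-rich repeat protein gene of stromal cells, had 247 in CD47 KO cells and 197 in WT cells, a ratio of 0.33. Both ratios were smaller than the SD between probe sets in their brightness groups. *Dpt*, the dermatopontin gene, was at the bottom of the scale with 1.47 in CD47 KO cells and 2.13 in WT cells. The 7 expressed matrix members had a median of -0.32, with 5 lower and 2 higher.

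Transport and junction genes were the most uniform group, with all 6 members expressed and lower. *Slc6a13*, encoding the GABA and taurine transporter GAT2, had 212 in CD47 KO cells and 476 in WT cells, a Log2 ratio of -1.17. *Slc6a20a*, an imino acid transporter gene, had 444 in CD47 KO cells and 986 in WT cells, a ratio of -1.15. *Slc13a4*, encoding a sulphate transporter, had 554 in CD47 KO cells and 1047 in WT cells, a ratio of -0.92. These ratios were larger than the SD between probe sets in their brightness groups (0.68 for *Slc6a13*, 0.56 for *Slc6a20a* and *Slc13a4*). That SD does not include differences between pools, so it does not give the error of these ratios. *Slc22a6*, the organic anion transporter OAT1, had 201 in CD47 KO cells and 374 in WT cells, a ratio of -0.89. *Slc47a1*, encoding the cation extruder MATE1, had 102 in CD47 KO cells and 183 in WT cells, a ratio of -0.84, and was expressed through the WT array alone. *Gjb2*, the connexin 26 gene of leptomeningeal gap junctions, had 238 in CD47 KO cells and 382 in WT cells, a ratio of -0.69. The 6 ratios lay within a narrow band from -1.17 to -0.69 around a median of -0.91.

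Genes of retinoic acid synthesis were lower as well. *Aldh1a2* encodes the retinaldehyde dehydrogenase through which the meninges make retinoic acid. Its signal was 185 in CD47 KO cells and 628 in WT cells, a Log2 ratio of -1.77, the lowest among the 29 expressed members. The related *Aldh1a1*, which astrocytes and some neurons also express, had 494 in CD47 KO cells and 774 in WT cells, a ratio of -0.65. *Crabp2*, encoding a carrier of retinoic acid, was below the median on both arrays with 19.0 in CD47 KO cells and 109 in WT cells. Beyond these, 14 genes of the retinoid pathway were named and 7 expressed, with 2 lower, 5 higher and a median of 0.15. *Rdh10*, encoding the retinol dehydrogenase that supplies Aldh1a2, had 943 in CD47 KO cells and 1434 in WT cells, a ratio of -0.60, and *Dhrs3*, whose product turns retinal back into retinol, had 2225 and 1994, a ratio of 0.16. The receptor genes *Rarg* and *Rxra* had -1.43 and 1.02, *Rarg* expressed through the WT array alone and *Rxra* through the CD47 KO array alone. *Ptgds*, encoding prostaglandin D synthase of the leptomeninges, choroid plexus and oligodendrocytes, had 10394 in CD47 KO cells and 10951 in WT cells. Its 2 probe sets gave -0.08 and -0.11, and with array centring the sign of the first turned to 0.06.

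Of the transcription factor genes, 2 were expressed and they went apart. *Foxc1*, a forkhead gene needed for meningeal development, had 398 in CD47 KO cells and 794 in WT cells, a Log2 ratio of -0.997. *Zic1*, a zinc finger gene that cerebellar granule neurons also express, had 4261 in CD47 KO cells and 3485 in WT cells, a ratio of 0.29, and its other probe set gave -0.07. *Foxd1*, a gene of pericyte and meningeal precursors, and *Twist1*, a mesenchymal regulator, lay below the median on both arrays. *Foxd1* had 22.0 in CD47 KO cells and 92.9 in WT cells, and *Twist1* had 15.3 and 19.2. *Foxc2*, the close relative of *Foxc1*, went the other way with 243 in CD47 KO cells and 15.5 in WT cells, and was expressed through the CD47 KO array alone.

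Further fibroblast genes that are not members were more evenly divided. Of 49 named, 34 were expressed, with 21 lower, 13 higher and a median of -0.24. On the 26 genes that reached the median on both arrays the median was -0.01, with 14 lower and 12 higher. Past 2-fold 6 were lower and 1 higher. These are 17.65% and 2.94% of the 34, against 5.41% and 3.53% of all expressed genes. With both arrays required 3 were lower and none higher, against 2.42% and 1.28% of all genes of that kind. *Mfap4*, a microfibril protein gene, had 118 in CD47 KO cells and 301 in WT cells, and *Col6a2*, a collagen VI chain gene, had 76.0 and 236, both expressed through the WT array alone. The fibrillar collagen gene *Col1a2* had 702 in CD47 KO cells and 1519 in WT cells, a ratio of -1.11, and *Slc22a8*, the relative of *Slc22a6* that the choroid plexus also expresses, had 746 and 1586, a ratio of -1.09. On the other side *Nupr1* had 1774 in CD47 KO cells and 947 in WT cells, a ratio of 0.91. *Pdgfra* had 365 and 204, a ratio of 0.84. *Col6a1*, another collagen VI chain gene, had 371 and 264, a ratio of 0.49. All of these reached the median on both arrays. *Apod*, an apolipoprotein gene of fibroblasts and oligodendrocytes, had 7750 in CD47 KO cells and 7228 in WT cells. *Serpinf1*, the pigment epithelium-derived factor gene, had 5056 and 4219. The lower values were therefore not shared by all genes that fibroblasts are known to express.

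**Figure D3:**
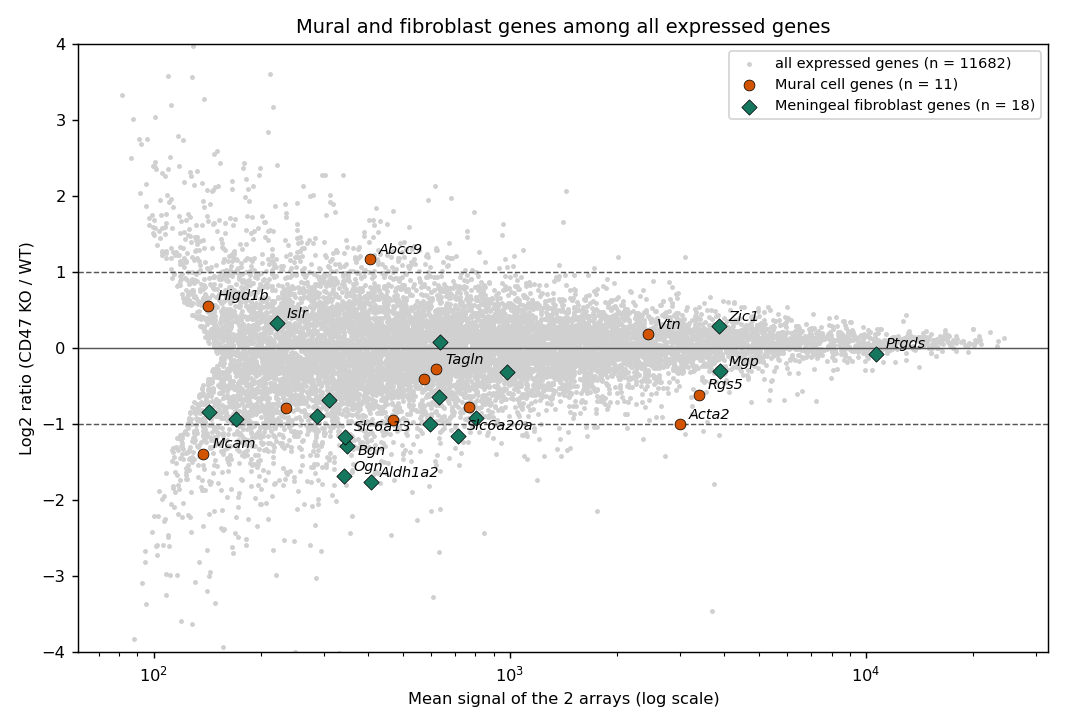
Log2 ratio (CD47 KO over WT) against the mean signal of both arrays (log scale) for the 11682 expressed genes (grey), the 11 mural genes (orange circles) and the 18 fibroblast genes (green diamonds), with dashed lines at 2-fold and 13 genes beyond the vertical axis. The spread narrows with brightness, and *Acta2* and *Rgs5* lie below most genes of like signal while *Abcc9* lies above.

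Agreement between probe sets could be read for 10 of the members, those with 2 or more expressed probe sets. In 6 of them all expressed probe sets were lower in CD47 KO cells (*Rgs5*, *Pdgfrb*, *Notch3*, *Ogn*, *Bgn* and *Ptgds*), in 2 all were higher (*Vtn* and *Fmod*) and in 2 they were mixed (*Abcc9* and *Zic1*). The second probe sets of *Notch3* and *Ogn* reached the median on the WT array alone and the fourth of *Fmod* on the CD47 KO array alone, so the threshold itself favoured their direction. Probe sets below the median on both arrays were left out of these counts. Some of these were flat or higher where the brightest probe set was lower. They gave 0.70 for *Bgn*, 0.65 for *Dcn*, 0.21 for *Myh11*, 0.13 for *Slc22a6* and -0.10 for *Foxc1*. For 20 of the 36 genes a single probe set was named, *Aldh1a2*, *Slc6a13*, *Slc6a20a* and *Mcam* among them, so their ratios have no second reading.

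Markers of other cells along the vessels and meninges were lower as well. Of 24 named endothelial markers 23 were expressed and 21 of these were lower in CD47 KO cells, with a median Log2 ratio of -0.45, and 3 were more than 2-fold lower. *Esam*, an endothelial adhesion molecule gene, had 248 in CD47 KO cells and 619 in WT cells, and the glucose transporter gene *Slc2a1* had 7060 and 7576. Of 12 markers of border macrophages 6 were expressed and all 6 were lower, with a median of -0.60, *Cbr2* at 188 in CD47 KO cells and 638 in WT cells and the mannose receptor gene *Mrc1* at 228 and 522. Markers of choroid plexus epithelium had a median of -0.38 over the 15 expressed of 16, with 12 lower, while *Ttr* had 23613 in CD47 KO cells and 23088 in WT cells. Summed over the expressed markers, which lets a few bright probe sets such as those of *Slc2a1* and *Ttr* set much of the value, the signal was 25720 in CD47 KO cells and 31020 in WT cells for the endothelium, 3028 and 4318 for border macrophages, and 47480 and 53370 for choroid plexus.

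Pituitary hormone genes differed by far more. Of 8 named, 4 were expressed, and these 4 were more than 2-fold lower in CD47 KO cells, *Gh* with 618 in CD47 KO cells and 6782 in WT cells, and their summed signal was 2328 in CD47 KO cells and 12270 in WT cells. Markers of cells of the brain tissue had medians near or above 0. The median Log2 ratio was 0.03 over 14 neuronal, 0.05 over 12 oligodendrocyte, 0.00 over 6 ependymal and 0.25 over 13 astrocyte markers, and microglial markers had 0.16 over 24. Neutrophil markers, which are not of the brain tissue, had -0.25 over 12, with 9 lower and 3 higher. The mural and fibroblast medians of -0.61 and -0.87 had the same sign as those of the other vessel and meningeal lists and of neutrophils. Their rank among the lists is not a result, since the members were chosen with earlier results of these arrays known. The further mural and fibroblast genes that are not members had medians of -0.37 and -0.24. With the median required on both arrays, these were -0.26 and -0.01. The part that the make-up of each preparation, its dissection included, has in these values was not tested. Skeletal muscle markers were mostly dim, with 2 of 14 expressed and none of them lower.

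**Figure D4:**
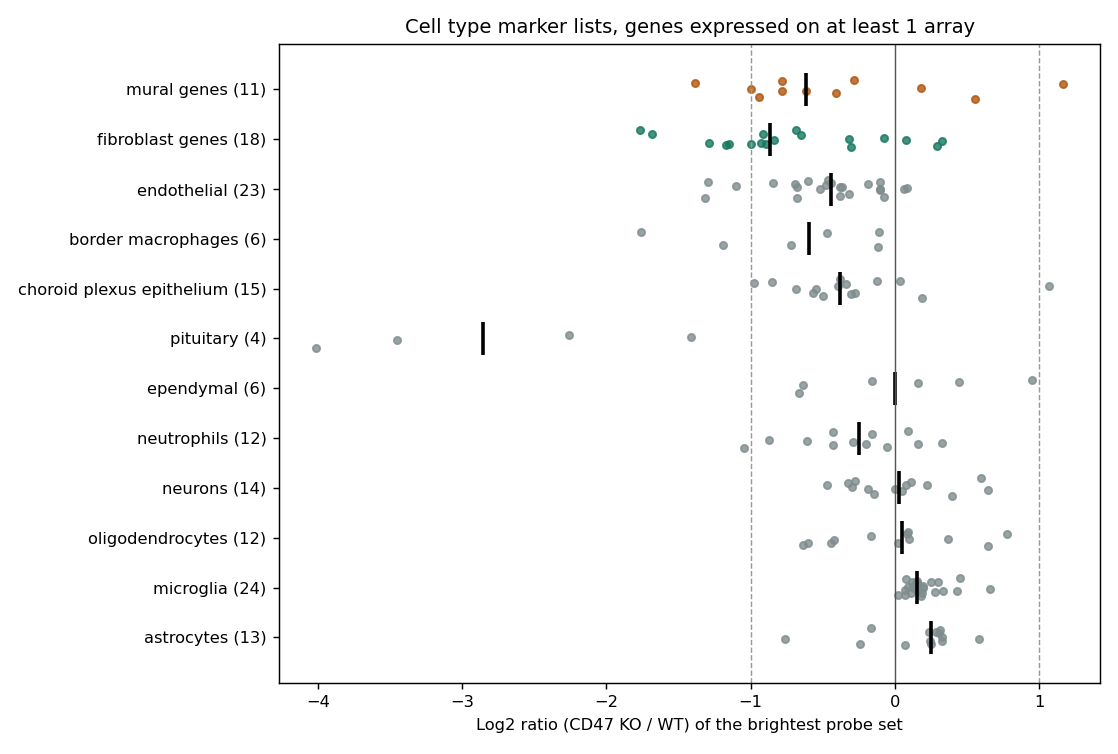
Log2 ratio (CD47 KO over WT) of the expressed genes of each cell type list (points, with the gene number after each name) and the median of the list as a black bar, 1 array per genotype. The mural and fibroblast medians lie at -0.61 and -0.87, that of border macrophages at -0.60 and that of endothelium at -0.45. The pituitary genes lie far to the left, and the microglial and astrocyte medians to the right of 0. The further mural and fibroblast genes, with medians of -0.37 and -0.24, are not drawn.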

How the data were processed

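Total RNA of brain mononuclear cells, collected from a Percoll gradient after digestion of whole brain, was pooled by genotype (6 CD47 KO and 7 WT mice), amplified from 20 ng and hybridised to GeneChip mouse arrays, 1 per pool. The deposited values are MAS5 signal intensities on a linear scale, which the authors made with the Expression Console Software. The sources used here do not give its version. Each array had the same mean of 500.002 after trimming 2% at each end. Of 45101 probe sets, 34945 carry exactly 1 gene symbol in the platform annotation, and 932 with several and 9160 with none were left out, as were 64 controls. The order of genes on chromosomes and the promoters came from RefSeq (GRCm38.p6).

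Ratios (CD47 KO over WT) were put on the Log2 scale with no offset, and more than 2-fold means a Log2 ratio beyond 1 in either direction. The arrays being 1 per genotype, nothing was tested, and this number limits the precision. The members and gene lists were chosen with earlier results of these data known. All members are named in the text, and of each other list the 3 expressed genes of largest change and the 2 of highest signal could be named. Genes outside this rule were chosen for their role or direction after their values were seen. Such genes are *Kcnj8*, *S1pr3*, *P2ry14*, *Cox4i2*, *Slc22a8*, *Col1a2*, *Nupr1*, *Pdgfra*, *Col6a1*, *Pdgfb*, *Jag1* and *Hey2*. Others are *Heyl*, *Hes1*, *Rbpj*, *Srf*, *Myocd*, *Mrtfb*, *Tpm2*, *Pln*, *Mylk* and the muscle actins and neighbouring proteoglycan genes. Alternatives changed the signal threshold, the probe set, the handling of low signals and the normalization (centring, quantile, or loess at a fraction of 0.4). The calculation was tested on simulated arrays. Python 3.11.15, pandas 2.3.3 and statsmodels 0.14.6 were used.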

Additional observations from a re-analysis of the deposited data

How the results depend on the processing

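The direction of both medians held under all 10 alternatives, from -0.74 to -0.48 for the mural genes and from -0.89 to -0.48 for the fibroblast genes. Centring moved the median of all expressed genes to 0.14, and the members' ratios moved up with it. The count of mural genes more than 2-fold lower was 1 in place of 2 with a threshold at the 75th percentile of signal, with the median required on both arrays, with centring, with the 25th percentile added to every signal and without the probe sets named for possible cross-hybridisation. In that order, 8, 9, 11, 11 and 10 mural genes were counted. The shares of all genes counted that were more than 2-fold lower were 2.07%, 2.42%, 3.97%, 3.64% and 5.56%. No mural gene (0) was more than 2-fold higher when the expressed probe sets of a gene were averaged, which takes in the second *Abcc9* probe set. With this averaging 3.15% of all genes counted were more than 2-fold higher. With the threshold at the 75th percentile, which left 10 fibroblast genes, 2 were more than 2-fold lower, against 2.07% of all genes counted. Without the probe sets named for cross-hybridisation *Acta2* turned to 1.38, read on a probe set below the median of both arrays. Of the 29 expressed members 21 were lower and 5 higher in all 7 settings that can change a single ratio, the exceptions being *Acta2*, *Fmod* and *Ptgds*. Not every setting could change every member. *Aldh1a2* and *Slc6a13*, with 1 probe set each, stayed at -1.77 and -1.17 with low signals raised and in both probe set settings. The 5 higher members include *Abcc9* and *Zic1*, whose expressed probe sets differed in sign. No array could be left out, since each genotype has 1.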
